A study of Mus musculus with 6 samples.

Results

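Oxidative phosphorylation is carried by 5 protein complexes of the inner mitochondrial membrane. Complexes I to IV pass electrons from NADH or succinate to oxygen and complexes I, III and IV pump protons, and complex V, the ATP synthase, lets the protons flow back to make ATP. Complex II is built from nuclear genes alone. The other 4 combine subunits translated from nuclear mRNAs with core subunits that are transcribed and translated inside the mitochondrion. The hepatocyte is rich in mitochondria, which also house its fatty acid oxidation and part of its urea cycle.

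The genes were taken by name: the Nduf, Sdh, Uqcr and Cyc1, Cox4 to Cox8 and Atp5 genes of the nucleus and the mRNA genes of mitochondrial DNA, without names ending in -ps. This gave 102 of 37991 genes, 89 nuclear and 13 mitochondrial. The nuclear genes fall to complex I (39), II (4), III (9), IV (20, with Ndufa4, which is now known as a subunit of complex IV) and V (17). The mitochondrial ones belong to complex I (7), III (1), IV (3) and V (2). Of the 89, 85 are annotated as protein-coding and 4 as processed pseudogenes (Ndufa11b, Ndufb4c, Ndufs6b and Cox6c2), and Atp5s, an assembly-related protein, carries the name without being a subunit. After a filter on low counts 96 were tested, 83 nuclear and all 13 mitochondrial. Ndufa11b, Ndufs6b, Cox4i2, Cox6a2, Cox7b2 and Cox8c were too low. Cox8c, a testis isoform, had 0 counts in all 6 libraries, where 3 counts is the level that a count of 0 allows.

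The 3 groups of 2 libraries each all came from mice with the Alb-Cre transgene (TgAlbCre), in which the albumin promoter makes hepatocytes express Cre recombinase, after 27 weeks of high-fat diet and at an age of 35 weeks. Tumours and KAP1-deleted livers came from mice in which this Cre also removes Trim28, the gene of the co-repressor KAP1. Control livers carried the Cre transgene alone. By the codes in the labels, tumour 1 and KAP1-deleted liver 1 share a mouse, as do tumour 2 and KAP1-deleted liver 2, so the 6 libraries stand for 4 mice. Liver cells that do not use this promoter keep Trim28 in this model. Litters and housing are not in the labels, so the p-values measure only how far these samples spread.

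Trim28 had 5.22 and 4.59 CPM in tumours 1 and 2 and 5.06 and 6.01 CPM in KAP1-deleted livers, against 32.5 and 35.9 CPM in control livers. CPM here are read counts over a TMM-adjusted library size, with factors that were 1.31 and 1.22 for tumours, 0.864 and 0.879 for KAP1-deleted livers, 0.872 and 0.948 for control livers. Gene counts per library lay between 39723997 and 62178752. Reads outside annotated genes took 35.0% and 31.3% in tumours 1 and 2, 22.3% and 18.1% for KAP1-deleted livers, 25.2% and 18.0% for control livers. The 10 hepatocyte markers, 0 of them at 0 in every library, summed to 53958 and 71629 CPM in tumours 1 and 2, to 108944 and 115318 CPM in KAP1-deleted livers, against 112076 and 118583 CPM in control livers.

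Many oxidative phosphorylation genes fell in tumours against the KAP1-deleted livers of the same mice. Of 96 tested genes 38 fell and 0 rose, which is 39.6% lower beside 6.64% of all 17558 genes tested (and 4.8% higher). A log2 fold change below 0 was seen in 95 of the 96, the exception being Ndufa4l2 at 0.39 ± 0.50. The median log2 fold change was -0.72 over the nuclear genes and -0.92 over the mitochondrial genes, beside -0.03 over all genes. The tumours lay below both KAP1-deleted livers in 89 of the 96 genes, beside 34.8% of all genes, and an unadjusted p under 0.05 in this direction was found for 74, beside 17.2% of all genes. In bulk tissue, fewer cells of a type and less RNA per cell cannot be told apart.

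**Figure D1:**
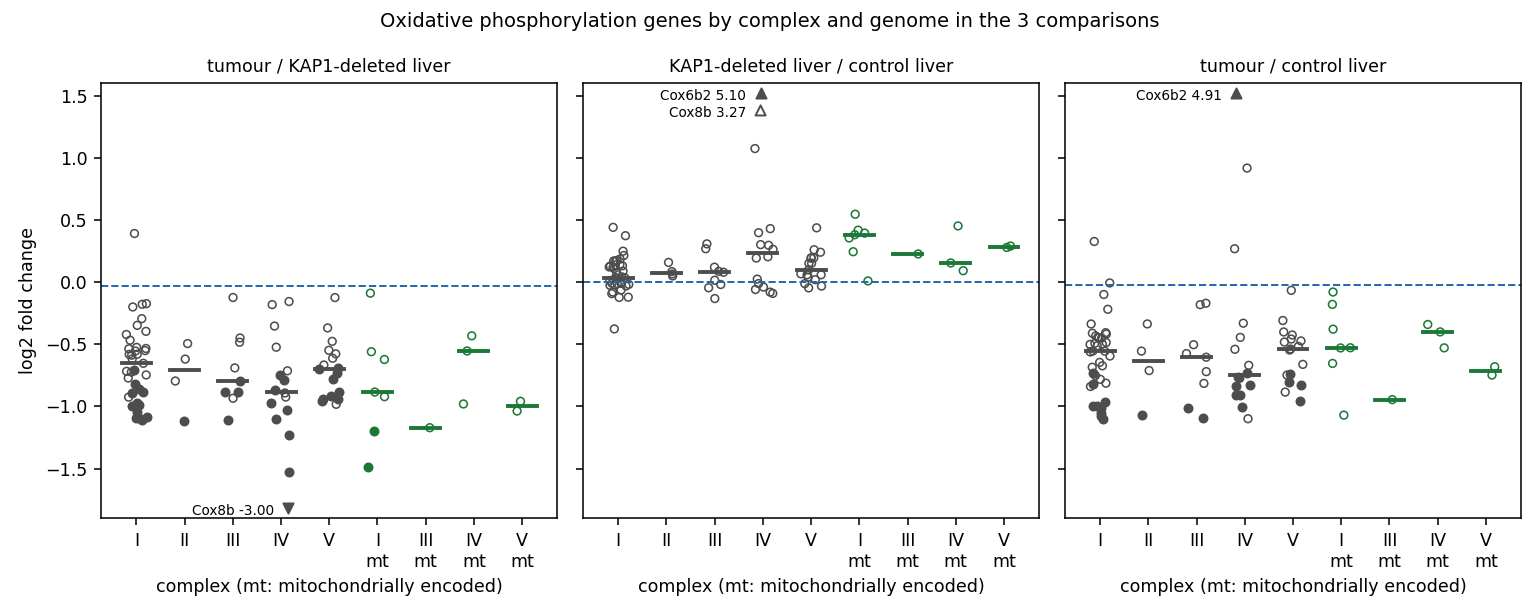
Log2 fold changes of the 96 tested oxidative phosphorylation genes (y axis) by complex, with nuclear genes in grey and mitochondrially encoded genes in green; filled symbols passed an edgeR adjusted p of 0.05, bars are medians, the dashed line is the median of all genes and triangles mark values beyond the axis. In both tumour comparisons nearly all points lie below the dashed line, while in KAP1-deleted against control liver the points lie on both sides of it, the mitochondrial ones above, and only Cox6b2 is filled.

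These 38 calls rest on few libraries. The number of all genes called lower also changed between fits, from 1165 in the main fit to 2321 of 17558 with the mouse as a block. With 1 library left out it moved in the same direction as the number of members, which is given next. Without tumour replicate 1 the number called lower was 0, without tumour replicate 2 it was 5, and without KAP1-deleted replicates 1 and 2 it was 9 and 4. Without control replicates 1 and 2, which are in neither group compared but enter the filter, the scaling and the estimate of spread, it was 57 and 51, while the fit that blocks on the mouse gave 58. All 38 kept their sign in every alternative tried, and their highest adjusted p over the alternatives lay between 0.0569 and 0.547. Cox6c, Ndufc2 and Ndufa5 kept their call in 5 of the 6 fits that leave out 1 library, the most of any.

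By complex, 13 of 37 tested nuclear genes of complex I fell (median log2 fold change -0.65), 1 of 4 of complex II (-0.71), 4 of 9 of complex III (-0.80), 9 of 16 of complex IV (-0.88) and 9 of 17 of complex V (-0.70). Of the 13 mitochondrial genes 2 fell, both of complex I. The mitochondrial medians were -0.88 for complex I, -1.17 for its only complex III gene, -0.55 for complex IV and -0.998 for complex V. Whether one complex fell by more than another was not tested.

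Complex I takes electrons from NADH. Ndufc2, an accessory subunit of its membrane arm, had the smallest adjusted p of all members in tumour against KAP1-deleted liver and is named here after its values were seen. It had 20.2 and 23.9 CPM in tumours 1 and 2, 46.0 and 48.5 CPM in KAP1-deleted livers, against 36.2 and 36.9 CPM in control livers. Both tumours lay below all 4 livers, with a log2 fold change of -1.10 ± 0.17 against KAP1-deleted liver (edgeR adjusted p = 0.0080) and -0.73 ± 0.17 against control liver (edgeR adjusted p = 0.0270).

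Ndufa5, an accessory subunit of the arm that reaches into the matrix, had 15.4 and 17.7 CPM in tumours 1 and 2, 34.5 and 33.9 CPM in KAP1-deleted livers, against 33.2 and 33.7 CPM in control livers. The 4 livers stood close together above both tumours, with log2 fold changes of -1.05 ± 0.16 and -1.02 ± 0.16 in tumours against KAP1-deleted and control liver (edgeR adjusted p = 0.0085 and 0.0076). Ndufb6, of the membrane arm, had 6.14 and 8.38 CPM in tumours 1 and 2, 14.7 and 16.7 CPM in KAP1-deleted livers, against 12.4 and 18.2 CPM in control livers (log2 fold change -1.11 ± 0.25 against KAP1-deleted liver, edgeR adjusted p = 0.0295). Tumours again lay below every liver for Ndufb6. Ndufb8 and Ndufb9, also accessory subunits of the membrane arm, fell by 1.10 and 1.09 on the log2 scale against KAP1-deleted liver (edgeR adjusted p = 0.0231 and 0.0163).

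The 7 nuclear core subunits of complex I carry the flavin and the iron-sulfur clusters. Of the 7, 2 fell, Ndufs7 (-0.99 ± 0.19) and Ndufv1 (-0.86 ± 0.22), with edgeR adjusted p = 0.0174 and 0.0431. The median log2 fold change of the 7 was -0.58. That of the 30 other tested nuclear genes of the complex was -0.71, of which 11 fell. Ndufs1, the largest core subunit, stood at 119 and 115 CPM in tumours, 148 and 149.7 CPM in KAP1-deleted livers, against 121 and 130.3 CPM in control livers, a log2 fold change of -0.35 ± 0.17 against KAP1-deleted liver that did not pass (edgeR adjusted p = 0.215). Per kilobase of transcript the most abundant nuclear gene of complex I was Ndufa6, with a mean of 154 CPM per kb over all libraries, and the least abundant one tested was Ndufa4l2, counted with complex I by its name, with 0.273 CPM per kb. Ndufa6 had a log2 fold change of -0.42 ± 0.16 in tumour against KAP1-deleted liver (edgeR adjusted p = 0.134).

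Complex II, succinate dehydrogenase, also serves the citric acid cycle. Sdhb, its iron-sulfur subunit, had 49.9 and 63.8 CPM in tumours 1 and 2, 115 and 132 CPM in KAP1-deleted livers, against 97.4 and 141 CPM in control livers. Tumours lay below all livers, and Sdhb fell against both (log2 fold change -1.12 ± 0.24 and -1.07 ± 0.24, edgeR adjusted p = 0.0239 and 0.0240). The flavoprotein Sdha and the membrane anchors Sdhc and Sdhd had log2 fold changes of -0.62, -0.80 and -0.49 against KAP1-deleted liver that did not pass (edgeR adjusted p = 0.199, 0.0844 and 0.126). Sdhd was the most abundant of the 4 at a mean of 125 CPM per kb and Sdhc the least at 23.0 CPM per kb.

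Complex III hands electrons to cytochrome c. Uqcr11, a small subunit, had 36.4 and 44.4 CPM in tumours 1 and 2, 78.4 and 96.2 CPM in KAP1-deleted livers, against 66.0 and 107 CPM in control livers (log2 fold change -1.11 ± 0.26 against KAP1-deleted liver, edgeR adjusted p = 0.0324). Uqcrh, the hinge protein that meets cytochrome c1, was the most abundant nuclear gene of the complex at 222 CPM per kb, and had 63.1 and 86.6 CPM in tumours, 120.0 and 156 CPM in KAP1-deleted livers, against 151 and 151 CPM in control livers. Both genes were lower in each tumour than in any liver. The Rieske protein gene Uqcrfs1 and Cyc1, cytochrome c1, also fell against KAP1-deleted liver (-0.88 ± 0.18 and -0.80 ± 0.21, edgeR adjusted p = 0.0204 and 0.04997). Uqcrc2, a core protein of the matrix side, was at 199 and 184 CPM in tumours, 195 and 223 CPM in KAP1-deleted livers, against 189.7 and 242 CPM in control livers, and its groups overlapped (log2 fold change -0.12 ± 0.20). Uqcrq was the least abundant of the 9, at 17.5 CPM per kb.

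Complex IV, cytochrome c oxidase, reduces oxygen. Cox6c, the most abundant nuclear gene of the complex at 337 CPM per kb, had 94.2 and 104 CPM in tumours 1 and 2, 251 and 214 CPM in KAP1-deleted livers, against 188 and 165 CPM in control livers. Tumours lay below all livers (log2 fold change -1.23 ± 0.19 against KAP1-deleted liver and -0.83 ± 0.19 against control liver, edgeR adjusted p = 0.0088 and 0.0275). Ndufa4 had 107 and 131 CPM in tumours 1 and 2, 277 and 233 CPM in KAP1-deleted livers, against 212 and 213 CPM in control livers (log2 fold change -1.10 ± 0.20 against KAP1-deleted liver, edgeR adjusted p = 0.0144). The called genes of the complex further included Cox5a, Cox5b, Cox7a2, Cox7b and Cox7c. Cox4i1 and Cox8a, the liver forms of subunits IV and VIII, had log2 fold changes of -0.89 ± 0.24 and -0.93 ± 0.25 against KAP1-deleted liver (edgeR adjusted p = 0.0517 and 0.0525), and passed against control liver (-0.90 ± 0.24 and -1.01 ± 0.25, edgeR adjusted p = 0.0441 and 0.0358). The pseudogene Cox6c2 was called lower as well (-1.53 ± 0.40, edgeR adjusted p = 0.0463). Of its 31-base words 38.3% occur in no other gene, so its value is uncertain beside that of Cox6c.

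Complex V, the ATP synthase, had its most abundant nuclear gene in Atp5b, the catalytic beta subunit, at 349.8 CPM per kb. Atp5b had 572 and 496 CPM in tumours 1 and 2, 700.0 and 786 CPM in KAP1-deleted livers, against 623 and 844 CPM in control livers. Its tumours lay below all livers without passing the test (log2 fold change -0.48 ± 0.24 against KAP1-deleted liver, edgeR adjusted p = 0.240). The alpha subunit gene Atp5a1, with 413 and 384 CPM in tumours, 714 and 819 CPM in KAP1-deleted livers, against 561 and 778 CPM in control livers, fell against KAP1-deleted liver (-0.94 ± 0.25, edgeR adjusted p = 0.0459). The membrane ring of subunit c is encoded by Atp5g1, Atp5g2 and Atp5g3, which make the same mature protein. Of these Atp5g1 and Atp5g3 fell against KAP1-deleted liver (-0.94 ± 0.22 and -0.92 ± 0.20, edgeR adjusted p = 0.0308 and 0.0252), and Atp5g2 had -0.37 ± 0.19 (edgeR adjusted p = 0.239). Atp5s, the least abundant at 3.44 CPM per kb and no subunit, had a log2 fold change of -0.12 ± 0.27.

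Against control liver the tumours gave a like picture in the nuclear genes, with fewer calls. Of 96 genes 23 fell, all nuclear, beside 7.76% of all genes tested, and 1 rose, Cox6b2, beside 6.15%. By complex the falls numbered 9 of 37 in complex I, 1 of 4 in II, 2 of 9 in III, 7 of 16 in IV and 4 of 17 in V. The median log2 fold change was -0.58 over nuclear and -0.53 over mitochondrial genes, beside -0.02 over all genes, and 92 of 96 were below 0. With 1 library left out the mitochondrial median lay between -0.90 and -0.15. The lowest values among called genes were those of Ndufb9 (-1.10), Uqcr11 (-1.10), Ndufb6 (-1.08), Sdhb (-1.07), Ndufb8 (-1.05), Ndufa5 (-1.02), Uqcrh (-1.01) and Cox8a (-1.01). In all, 21 genes were lower in both tumour comparisons, 55.3% of those lower against KAP1-deleted liver and 91.3% of those lower against control liver, and both comparisons use the same tumours. With 1 library left out, the number of all genes called lower against control liver moved in the same direction as the number of members, which is given next. Without tumour replicates 1 and 2 the number that fell was 0 and 2, without KAP1-deleted replicates 1 and 2 it was 15 and 16, and without control replicates 1 and 2 it was 45 and 4.

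Library by library, the nuclear genes summed to 5032 and 5216 CPM in tumours 1 and 2, to 7995 and 8752 CPM in KAP1-deleted livers, against 6789 and 8697 CPM in control livers 1 and 2. Both tumours lay below all 4 livers, and so did they in each of the 5 complexes. The mitochondrial mRNAs summed to 22619 and 32512 CPM in tumours, 51656 and 41056 CPM in KAP1-deleted livers, against 46065 and 30388 CPM in control livers. Here tumour replicate 2 lay above control replicate 2, so tumours and control livers overlapped, while both tumours lay below both KAP1-deleted livers.

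**Figure D2:**
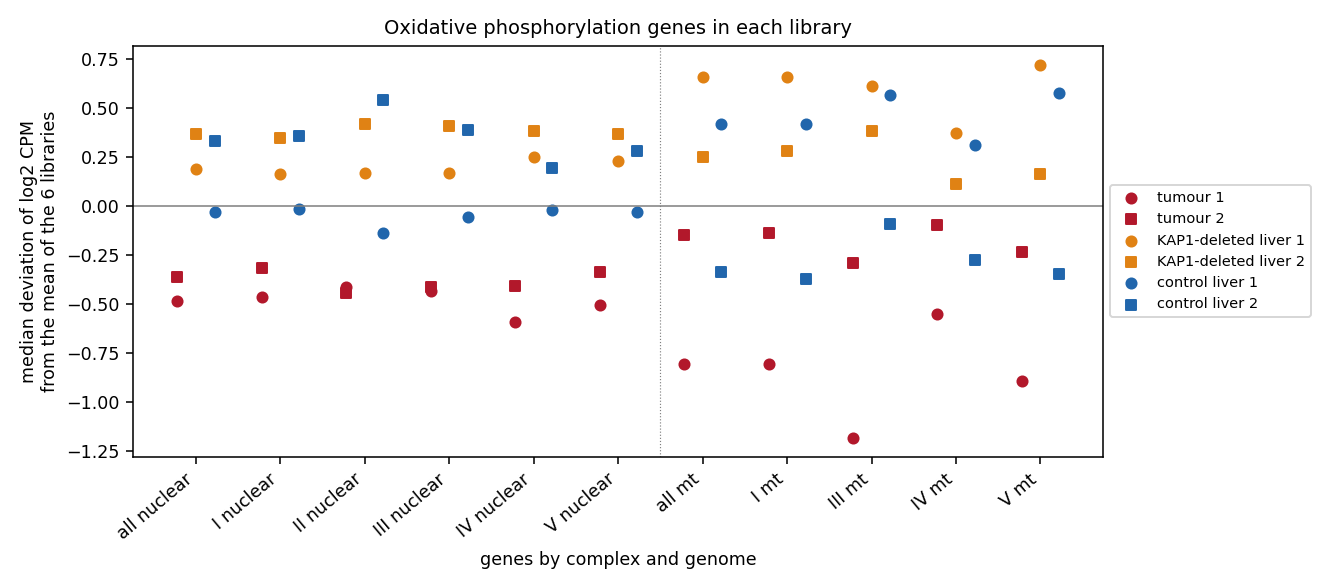
Median over the genes of each complex and genome (x axis) of the deviation of log2 CPM from the mean of the 6 libraries (y axis), 1 symbol per library. In the nuclear sets both tumours lie below all livers, between -0.59 and -0.31 by complex, while in the mitochondrial sets the replicates of a group lie far apart and control liver 2 falls among the tumours in complexes I, IV and V and above both in complex III.

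The replicates of a group were further apart in mitochondrial than in nuclear genes. For the mitochondrial genes the median deviation of log2 CPM from the mean of all libraries was -0.81 and -0.15 in tumours 1 and 2, 0.66 and 0.25 in KAP1-deleted livers, against 0.42 and -0.33 in control livers. For the nuclear genes it was -0.48 and -0.36 in tumours, 0.19 and 0.37 in KAP1-deleted livers, against -0.03 and 0.34 in control livers. In KAP1-deleted and control livers the library with the higher nuclear value had the lower mitochondrial value, whereas tumour 2 was the higher one in both. The ratio of mitochondrial to nuclear counts was 4.49 and 6.23 in tumours, 6.46 and 4.69 in KAP1-deleted livers, against 6.79 and 3.49 in control livers. Its means of 5.36 ± 1.23, 5.58 ± 1.25 and 5.14 ± 2.33 in tumour, KAP1-deleted and control liver (SD, n = 2 each) lay within 1 SD of each other.

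As a share of all gene counts the groups stood closer together. Nuclear genes held 0.659% and 0.635% of counts in tumours 1 and 2, 0.691% and 0.769% in KAP1-deleted livers, against 0.592% and 0.824% in control livers. Mitochondrial genes held 2.96% and 3.96% in tumours, 4.46% and 3.61% in KAP1-deleted livers, against 4.02% and 2.88% in control livers. The exact 95% counting interval of the mitochondrial share in tumour 1 is 2.96% to 2.97%, and such intervals cover counting error only. On this scale tumours and control livers overlapped for both genomes. Tumours and KAP1-deleted livers overlapped for the mitochondrial genes. For the nuclear genes both tumours lay below both KAP1-deleted livers. The tumours' TMM factors are above 1 and those of all livers below it. Scaled by library totals alone, the median of all genes moved to 0.50 in tumour against KAP1-deleted liver and 0.45 in tumour against control liver. The number of members called lower was then 3 and 0, beside 520 and 627 of all 17558 genes. Relative to the median of all genes the nuclear genes then stood at -0.70 and the mitochondrial ones at -0.90 against KAP1-deleted liver. With TMM these values were -0.69 and -0.89. A change of scaling shifts all genes of a comparison by about the same amount, so these distances could hardly change.

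**Figure D3:**
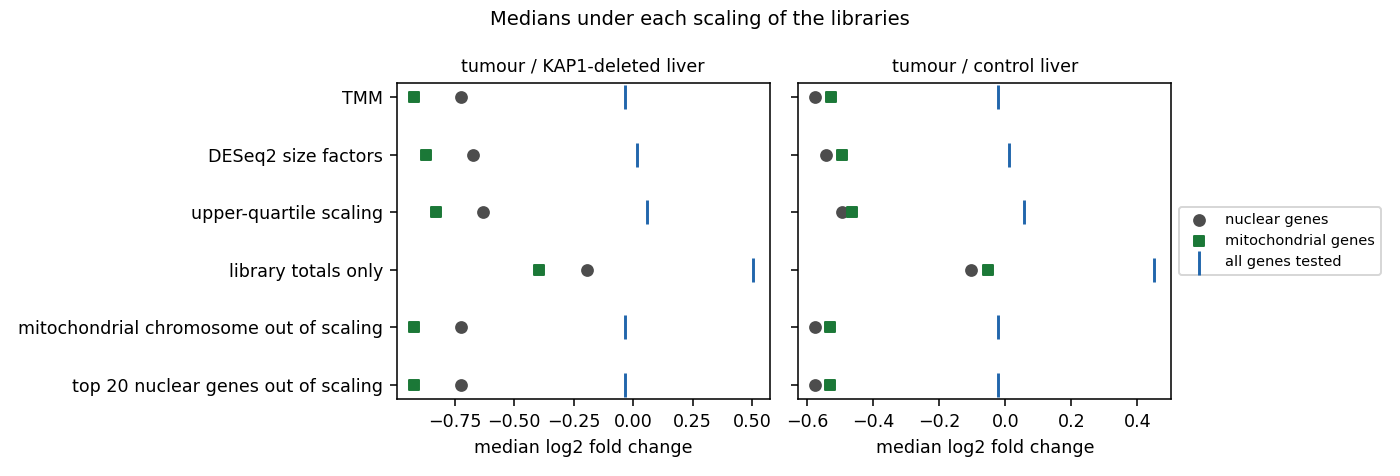
Median log2 fold change (x axis) of nuclear genes (grey circles), mitochondrially encoded genes (green squares) and all genes tested (blue bars) under 6 ways of scaling the libraries (rows). The distance between the members and all genes is nearly the same in each row, because a change of scaling shifts all genes by about the same amount. With library totals only all 3 medians lie further to the right.

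The make-up of the mitochondrial mRNAs was set out as the share of each gene in their summed counts. They are cut from long transcripts of both strands of mitochondrial DNA. mt-Co1, the catalytic subunit of complex IV, held 43.9 ± 1.41% of the counts of the 13 genes in tumours, 38.3 ± 1.34% in KAP1-deleted livers, against 42.1 ± 3.15% in control livers (SD, n = 2 each). mt-Co3 held 25.8% and 25.9% in tumours, 31.2% and 29.3% in KAP1-deleted livers, against 26.8% and 27.1% in control livers. KAP1-deleted livers were thus highest in mt-Co3 and lowest in mt-Co1, and in mt-Co1 the control livers overlapped the tumours.

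mt-Nd3, a core membrane subunit of complex I, held 1.33% and 1.68% in tumours 1 and 2, 2.60% and 2.53% in KAP1-deleted livers, against 2.42% and 2.19% in control livers. mt-Cytb, the catalytic subunit of complex III, held 2.47% and 3.19% in tumours, 3.76% and 4.03% in KAP1-deleted livers, against 4.09% and 3.92% in control livers. For both, and for mt-Co3, mt-Atp6 and mt-Nd6, each tumour lay below each of the 4 livers. mt-Co2, which takes the electrons from cytochrome c, went the other way, with 7.39% and 7.21% in tumours, 5.61% and 6.15% in KAP1-deleted livers, against 6.87% and 6.32% in control livers. In mt-Nd1 and mt-Nd4l both tumours also lay above each of the 4 livers. No test was made on these shares, and 2 libraries a group limit their precision.

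**Figure D4:**
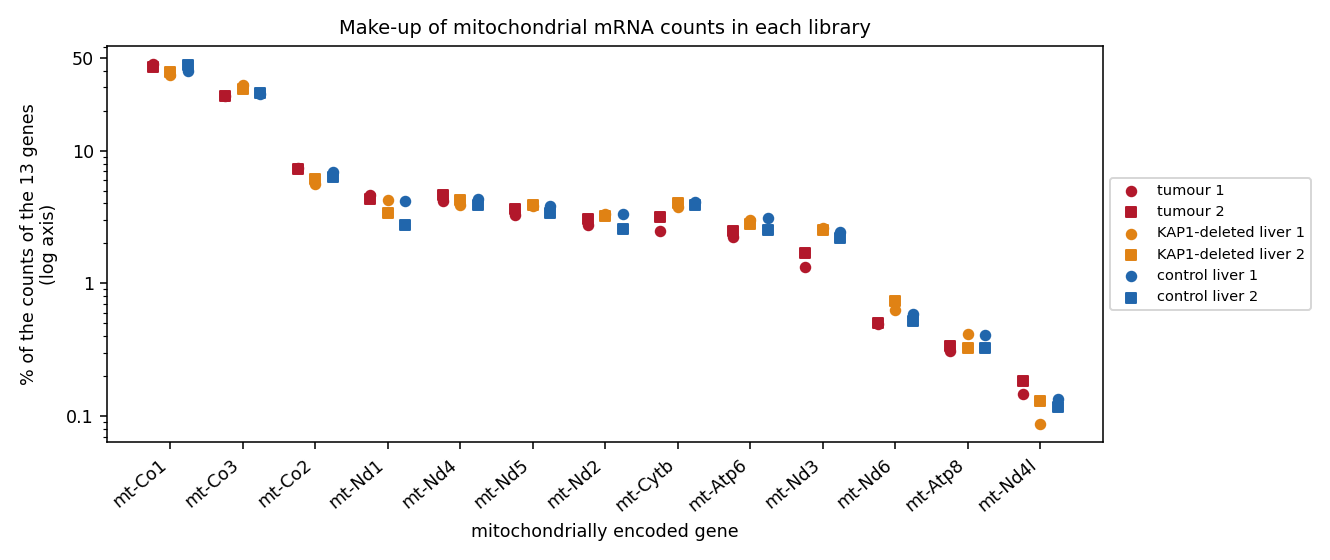
Share of each of the 13 mitochondrially encoded genes (x axis) in their summed counts (y axis, log scale), 1 symbol per library. mt-Co1 and mt-Co3 hold most counts. The tumours lie below all livers in mt-Co3, mt-Cytb, mt-Atp6, mt-Nd3 and mt-Nd6 and above them in mt-Co2, mt-Nd1 and mt-Nd4l.

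In the gene-wise test mt-Nd3 and mt-Nd6 fell in tumours against KAP1-deleted liver. mt-Nd3 had 301 and 547 CPM in tumours 1 and 2, 1340 and 1039 CPM in KAP1-deleted livers, against 1115 and 667 CPM in control livers (log2 fold change -1.49 ± 0.37 against KAP1-deleted liver, edgeR adjusted p = 0.0416). mt-Nd6, the only mRNA gene of the light strand, had 112 and 163 CPM in tumours, 328 and 303 CPM in KAP1-deleted livers, against 273 and 159.7 CPM in control livers (-1.20 ± 0.30, edgeR adjusted p = 0.0407). Tumours lay below both KAP1-deleted livers in each gene, and for mt-Nd6 tumour 2 overlapped control liver 2. The other log2 fold changes against KAP1-deleted liver were -1.17 for mt-Cytb, -1.04 for mt-Atp6 and -0.96 for mt-Atp8 of the ATP synthase, -0.98 for mt-Co3, -0.55 for mt-Co1 and -0.43 for mt-Co2, and, in complex I, -0.92 for mt-Nd2, -0.88 for mt-Nd5, -0.62 for mt-Nd4, -0.56 for mt-Nd1 and -0.09 for mt-Nd4l, and did not pass.

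Nuclear copies of mitochondrial DNA share sequence with these genes. Of the 31-base words of mt-Co2, mt-Atp6, mt-Co3, mt-Nd4l and mt-Nd3, 0% to 1.89% occur in no other annotated gene, and of mt-Co1 and mt-Nd4 36.1% and 37.2%. The other 6 genes exceed 80%, and their median log2 fold change in tumour against KAP1-deleted liver was -0.94. The nuclear pseudogene Gm10222 held 60.6% to 62.2% of the counts that it and mt-Nd4l have together, so mt-Nd4l is uncertain. Gm13340, Gm13341 and Gm13339 held 2.66% to 2.87%, 4.59% to 5.62% and 2.08% to 3.20% beside mt-Co1, mt-Co2 and mt-Nd2. mt-Nd6 overlaps mt-Nd5 on the other strand, and no source used here gives the strand setting of the counting. For the same reason the values of Ndufb6, Ndufs1, Ndufa4l2, Uqcrc2, Cox4i1, Cox5a, Cox6a2, Cox6c and Atp5a1, which share exon bases with a gene of the other strand, are uncertain. Called genes not set out above also share such bases, among them Ndufa2, Ndufa13, Atp5d and Atp5j. Ndufb8, Ndufb9 and Atp5g2 share exon bases with a gene model of their own strand and are uncertain too.

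Between KAP1-deleted and control liver 1 of the 96 genes passed the test. Cox6b2 rose and 0 fell, beside 0.239% higher and 0.0968% lower among all genes. An unadjusted edgeR p under 0.05 was found for 2, both higher (beside 3.27% of all genes), and 0 lower. DESeq2 called 1, higher, beside 152 of all 17558 genes higher, and limma-voom 0, beside 26 higher. The median log2 fold change in KAP1-deleted against control liver was 0.08 over nuclear and 0.29 over mitochondrial genes, beside 0.00 over all genes. Both medians change sign with 1 library left out: the nuclear one was -0.11 without control replicate 1 and the mitochondrial one -0.09 without control replicate 2. Their direction is therefore not settled by these libraries.

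Cox6b2 (ENSMUSG00000051811, chromosome 7, 4751792 to 4753094, minus strand of GRCm38) encodes the testis form of subunit VIb of complex IV, a subunit on the side of the intermembrane space. It had 148 and 66 counts in tumours 1 and 2, 106 and 64 counts in KAP1-deleted livers, against 1 and 4 counts in control livers. These are 2.04 and 1.26 CPM in tumours, 2.41 and 1.36 CPM in KAP1-deleted livers, against 0.0289 and 0.0679 CPM in control livers. All 4 libraries with KAP1 deleted lay above both controls, and tumours and KAP1-deleted livers overlapped.

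The log2 fold change of Cox6b2 was 5.10 ± 0.59 in KAP1-deleted against control liver (edgeR adjusted p = 0.0217) and 4.91 ± 0.59 in tumour against control liver (edgeR adjusted p = 0.0026). As ratios of scaled counts these are 34.9 (95% counting interval 14.6 to 109) and 32.0 (13.5 to 99.7), and 0.919 (0.748 to 1.13) in tumour against KAP1-deleted liver; the intervals cover counting error only. In KAP1-deleted against control liver the call was lost without control replicates 1 and 2 (adjusted p = 0.0581 and 0.0514), with limma-voom (0.0619) and with only these 4 libraries in the fit (0.0615), over a range of 3.6e-18 to 0.0619. A filter at a mean CPM of 5 removed the gene. Against control liver the tumours kept the call in all 15 alternatives that tested it, with adjusted p up to 0.0142.

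Cox6b1, the form of most tissues, had 66.6 and 85.2 CPM in tumours 1 and 2, 85.9 and 108 CPM in KAP1-deleted livers, against 79.9 and 127 CPM in control livers, with a log2 fold change of -0.09 ± 0.26 in KAP1-deleted against control liver. Control livers overlapped both other groups, and both tumours lay below the lower KAP1-deleted liver, tumour 2 only just. Per length, Cox6b2 made up 3.31% and 1.62% of the pair in tumours, 3.03% and 1.38% in KAP1-deleted livers, against 0.0403% and 0.0598% in control livers. Among the neighbours on chromosome 7, Kmt5c, a histone methyltransferase gene, had a log2 fold change of 0.52 ± 0.29 in KAP1-deleted against control liver (edgeR adjusted p = 1), Tmem238 had 0.17 ± 0.31 (edgeR adjusted p = 1), and Fam71e2 had 0 counts in all libraries. All words of Cox6b2 are unique to it and no other annotated exon overlaps its own.

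**Figure D5:**
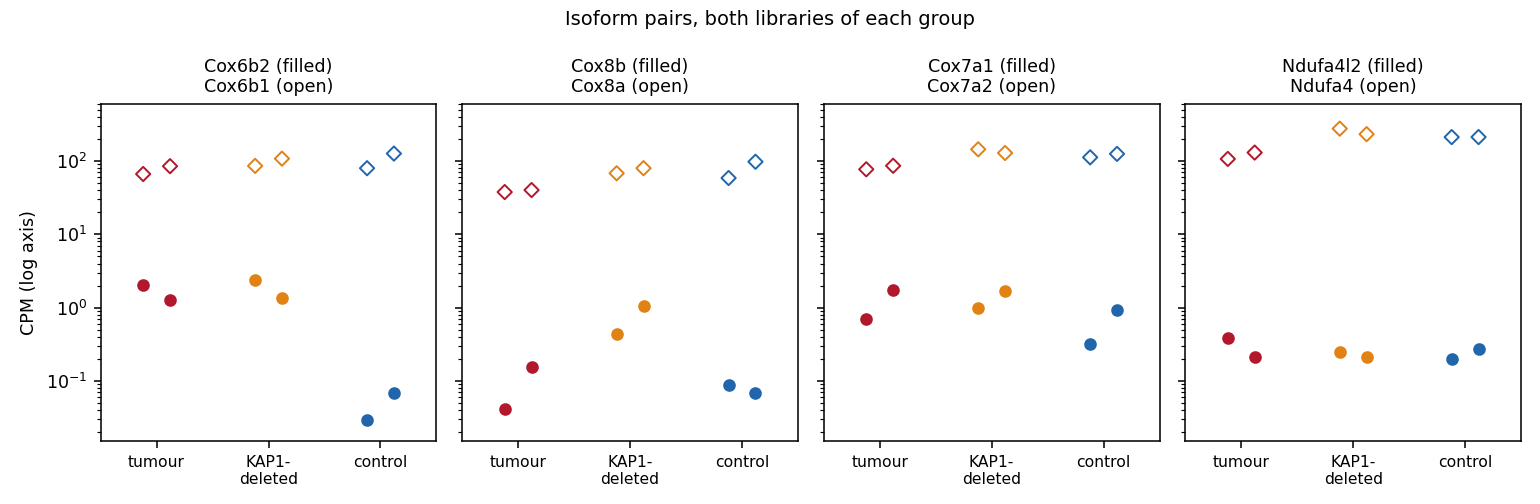
CPM per library (y axis, log scale) of 4 tissue-restricted isoforms (filled circles) and their liver partners (open diamonds) in tumour, KAP1-deleted and control liver (x axis, both libraries of each). Cox6b2 stands at 1.26 to 2.41 CPM in the 4 libraries with KAP1 deleted and below 0.1 CPM in both controls, and its partner Cox6b1 does not separate them.

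The other isoforms of restricted tissues stayed low or near their floor. Cox8b, the heart and muscle form of subunit VIII, had 3 and 8 counts in tumours 1 and 2, 19 and 50 counts in KAP1-deleted livers, against 3 and 4 counts in control livers. KAP1-deleted livers lay above all others. The log2 fold change was -3.00 ± 0.70 in tumour against KAP1-deleted liver (edgeR adjusted p = 0.0321), and 3.27 in KAP1-deleted against control liver, which did not pass (edgeR adjusted p = 0.237). As ratios of scaled counts these are 0.116 (95% counting interval 0.0555 to 0.222) and 10.1 (4.65 to 26.1). The call against KAP1-deleted liver was lost without KAP1-deleted replicate 2 (log2 fold change -2.21) and without tumour replicates 1 and 2 (-2.28 and -4.11). It was kept in the other alternatives that tested the gene. The 5 muscle and adipose markers summed to 0.138 and 0.381 CPM in tumours and 0.681 and 2.88 CPM in KAP1-deleted livers. In control livers they summed to 0.0289 and 7.65 CPM. Nearly all of this was Cidea, the only 1 of the 5 that passed the filter. It had 0.124 and 0.362 CPM in tumours, 0.681 and 2.86 in KAP1-deleted livers, against 0.0289 and 7.57 in control livers. The part of these markers in the Cox8b result was not tested.

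Cox7a1, the heart and muscle form of subunit VIIa, had 50 and 92 counts in tumours, 44 and 80 in KAP1-deleted livers, against 11 and 54 in control livers, and no comparison passed. Its partners Cox7a2, the liver form, and Cox7a2l, a factor for supercomplexes, had log2 fold changes of -0.74 ± 0.18 and -0.52 ± 0.18 in tumour against KAP1-deleted liver, of which the first passed (edgeR adjusted p = 0.0353 and 0.0938). Cox4i2, the lung form of subunit IV, had 2 and 2 counts in tumours, 1 and 2 in KAP1-deleted livers, against 2 and 2 in control livers, beside 7595 and 5583, 7597 and 10358, and 5501 and 13931 for Cox4i1. Cox6a2, the muscle form of subunit VIa, had 4 and 15 counts in tumours, 3 and 1 in KAP1-deleted livers, against 3 and 6 in control livers. Cox7b2 had 1 count in all 6 libraries together.

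The stretches before the start of 5 genes show the isoform pair and 3 nuclear subunits that fell in both tumour comparisons. These 3 are examples that all hold the motif marked below and are not typical of the genes that fell. Of the 30 promoters found for nuclear genes called lower against KAP1-deleted liver, 9 hold it. They are the 250 bases before the RefSeq start of each gene in GRCm38.p6, at chr7:4753095-4753344, chr7:30626115-30626364, chr4:116075071-116075320, chr4:40279422-40279671 and chr10:80406822-80407071, all on the minus strand and printed 5′ to 3′ along the gene. Capitals mark CCGGAAG on either strand, the core of sites for ETS factors, among them the GA-binding protein that is known for its role at nuclear respiratory genes.
Cox6b2: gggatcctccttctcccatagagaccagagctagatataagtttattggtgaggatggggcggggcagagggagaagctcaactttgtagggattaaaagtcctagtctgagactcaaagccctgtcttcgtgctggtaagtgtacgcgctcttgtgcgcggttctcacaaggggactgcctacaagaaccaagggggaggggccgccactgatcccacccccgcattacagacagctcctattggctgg
Cox6b1: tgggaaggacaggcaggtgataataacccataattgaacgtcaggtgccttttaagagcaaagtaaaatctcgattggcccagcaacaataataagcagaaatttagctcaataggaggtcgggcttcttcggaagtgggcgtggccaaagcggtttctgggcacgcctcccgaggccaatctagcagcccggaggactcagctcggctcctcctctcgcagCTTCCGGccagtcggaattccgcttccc
Uqcrh: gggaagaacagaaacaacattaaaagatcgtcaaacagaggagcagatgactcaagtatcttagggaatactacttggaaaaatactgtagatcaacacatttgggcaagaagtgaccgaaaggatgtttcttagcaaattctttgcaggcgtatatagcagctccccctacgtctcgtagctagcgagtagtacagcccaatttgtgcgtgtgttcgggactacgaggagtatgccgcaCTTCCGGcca
Ndufb6: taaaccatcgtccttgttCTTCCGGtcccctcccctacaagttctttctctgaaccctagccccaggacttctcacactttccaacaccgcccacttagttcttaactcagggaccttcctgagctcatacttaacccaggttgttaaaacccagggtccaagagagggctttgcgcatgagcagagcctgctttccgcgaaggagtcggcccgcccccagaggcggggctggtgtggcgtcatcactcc
Uqcr11: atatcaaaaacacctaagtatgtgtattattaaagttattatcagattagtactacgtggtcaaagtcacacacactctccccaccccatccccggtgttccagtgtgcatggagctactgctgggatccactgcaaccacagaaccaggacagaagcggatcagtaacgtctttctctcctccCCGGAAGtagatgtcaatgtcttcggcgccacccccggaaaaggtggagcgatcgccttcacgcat
Cox6b2 has no such match in this window and 8 CpG pairs, and Cox6b1 has 1 match, 28 bases before the start, and 14 CpG pairs.

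A promoter of 250 bases before and 50 after the start was found for 66 of the 89 nuclear genes. CCGGAAG or its reverse CTTCCGG was in 16 of the 66 (24.2%), beside 9.93% of all 27025 promoters. GCATGCG or CGCATGC, the core of sites bound by NRF1, was in 11 (16.7%), beside 4.01%. AAGATGG or CCATCTT, the core of a YY1 motif, was in 10 (15.2%), beside 7.28%. AAGGTCA or TGACCTT, bound by ERR nuclear receptors among others, was in 8 (12.1%), beside 5.38%, and GGGCGG or CCGCCC, the SP1 core, in 26 (39.4%), beside 38.2%. Of the 30 promoters of genes called lower in tumours against KAP1-deleted liver, 9 held the ETS motif, 4 the NRF1, 5 the YY1, 5 the ERR and 10 the SP1 motif. A base can count towards more than 1 motif, and a match is only a match of letters.

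Genes that assemble the complexes were counted in the same fit, where 6.64% of all genes were called lower and 4.8% higher in tumours against KAP1-deleted liver. Of 17 tested complex I assembly factors 2 fell in tumours against KAP1-deleted liver (median log2 fold change -0.38), of 25 complex IV factors 3 (-0.39), and 0 of 4, 6 and 5 for complexes II, III and V, with 0 rising in any of these lists. Coa6, a copper-related factor for complex IV, had 18.4 and 17.2 CPM in tumours 1 and 2, 47.3 and 35.2 CPM in KAP1-deleted livers, against 39.2 and 26.0 CPM in control livers (log2 fold change -1.21 ± 0.24, edgeR adjusted p = 0.0204). Tumours lay below all livers. Of 23 genes of mitochondrial DNA and its transcription 2 fell (median -0.13), Hsd17b10, a subunit of mitochondrial RNase P (-1.08 ± 0.20), and Polg, the mitochondrial DNA polymerase (-0.74 ± 0.18), with edgeR adjusted p = 0.0145 and 0.0387. Each of these 3 lost its call without either tumour replicate, and also without KAP1-deleted replicate 1 (Coa6), 2 (Hsd17b10) or either (Polg), with highest edgeR adjusted p of 0.098 (Coa6), 0.0860 (Hsd17b10) and 0.206 (Polg) over these fits, and all 3 lost it with library totals only. In KAP1-deleted against control liver 0 genes passed in any of these lists.

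Of 19 nuclear regulators of respiration 1 rose and 1 fell in tumours against KAP1-deleted liver, beside 4.8% higher and 6.64% lower of all genes. These shares are near the background and say nothing about the list. Esrra, an ERR nuclear receptor that activates respiratory genes, had 9.64 and 7.60 CPM in tumours 1 and 2, 16.3 and 18.0 CPM in KAP1-deleted livers, against 13.9 and 17.3 CPM in control livers (-0.99 ± 0.21, edgeR adjusted p = 0.0224). Gabpb1, the beta subunit of GA-binding protein, had 22.6 and 21.1 CPM in tumours, 11.6 and 9.70 CPM in KAP1-deleted livers, against 10.5 and 7.87 CPM in control livers (1.04 ± 0.21, edgeR adjusted p = 0.0191). Both genes separated the tumours from all livers, Esrra below and Gabpb1 above them. Each lost its call against KAP1-deleted liver when either tumour or either KAP1-deleted replicate was left out. Esrra also lost it with library totals only.

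Of 18 genes of the citric acid cycle 1 rose and 1 fell in the same comparison, which is also near the background shares. Idh3a, the alpha subunit of the NAD-linked isocitrate dehydrogenase, had 48.6 and 46.6 CPM in tumours, 25.6 and 20.9 CPM in KAP1-deleted livers, against 25.3 and 22.7 CPM in control livers (1.03 ± 0.18, edgeR adjusted p = 0.0116). Suclg1, the alpha subunit of succinyl-CoA ligase, had a log2 fold change of -0.75 ± 0.18 (edgeR adjusted p = 0.0376). Of 19 genes of electron carriers and coenzyme Q 2 fell, among them Cycs, cytochrome c, with 97.6 and 103 CPM in tumours, 202 and 158 CPM in KAP1-deleted livers, against 137 and 115 CPM in control livers (-0.84 ± 0.20, edgeR adjusted p = 0.0344). Cycs in tumours lay below all 4 livers. Of 8 carriers and uncoupling proteins 0 passed, and of 9 hypoxia targets Ndrg1 rose (1.18 ± 0.19, edgeR adjusted p = 0.0089) and Pdk1, a kinase that inhibits pyruvate dehydrogenase, fell (-1.62 ± 0.21, edgeR adjusted p = 0.0042). Idh3a lost its call without tumour replicate 1 or KAP1-deleted replicate 2, Suclg1 and Cycs without any 1 of the 4 libraries, and Ndrg1 without either KAP1-deleted replicate. Over these fits the highest edgeR adjusted p was 0.114 for Idh3a, 0.228 for Suclg1, 0.208 for Cycs and 0.0696 for Ndrg1, and Pdk1 kept its call in every alternative, at up to 0.0298.

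Other features moved with the tumours, but some lists of cell markers did not separate tumours from livers. Besides the hepatocyte markers, 8 Kupffer and macrophage markers summed to 209 and 245 CPM in tumours 1 and 2, 500.2 and 478 CPM in KAP1-deleted livers, against 469 and 458 CPM in control livers, and 7 endothelial markers to 210.3 and 204 CPM in tumours, 323 and 323 CPM in KAP1-deleted livers, against 292 and 304 CPM in control livers. Of the 10 hepatocyte markers 3 fell in tumours against KAP1-deleted liver, with a median log2 fold change of -1.09. The nuclear members are short: 73 have transcripts of 1698 bases or less, within the shortest of 4 equal length classes of nuclear protein-coding genes, where their median log2 fold change in tumour against KAP1-deleted liver was -0.73 with 45.2% called lower, beside -0.16 and 8.78% for the 3381 other genes of that class. The part of cell content, transcript length and reads outside genes in the lower levels was not tested.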

How the data were processed

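Stranded TruSeq libraries of total RNA were sequenced, per the labels' protocols. The deposited tables give raw counts per Ensembl gene. TopHat and HTSeq 0.6.1 on mm9 made them, per the submitters' processing notes. No source used here gives the annotation, the strand setting or the handling of reads with several alignments. The HTSeq counter rows, which stand for no gene, stayed out of totals and tests. Genes without a symbol stayed in, and 16523 of the 17558 genes tested had a symbol. Symbols, lengths and shared 31-base words came from a GRCm38 annotation matched by identifier (32919 of 37991 genes), and promoters from RefSeq.

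Counts were filtered with filterByExpr (minimum count 10, minimum total 15), scaled with TMM and tested with edgeR 4.0.16 in R 4.3.3, using a robust quasi-likelihood fit of the 3 groups with 3 residual degrees of freedom. Two-sided p-values were adjusted by Benjamini-Hochberg over 17558 genes and called at 0.05. Standard errors are the log2 fold change divided by the root of F. The scripts were tested on simulated data. Replicates were no duplicates, as a chi-square of their counts came to 82.6 to 321 times its degrees of freedom. All libraries carry 1 batch label.

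Tumour and KAP1-deleted liver of equal number come from 1 mouse by the label codes (r = 0.165 between their deviations from group means, across genes). A block by mouse leaves 1 residual degree of freedom. Other alternatives were DESeq2 1.42.0, limma-voom 3.58.1, other scalings and filters, only the groups compared, and each library left out.

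Named genes are the mitochondrial ones, up to 8 called with the lowest and highest fold changes per comparison, the most and least abundant per complex, isoform pairs, members that are no subunits, and list genes with the smallest adjusted p. Others were named after their values were seen. The members and lists were chosen with earlier results of these data known.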

Additional observations from a re-analysis of the deposited data

How the results depend on the processing

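The number of genes lower in tumour against KAP1-deleted liver, 38 in the report, was 20 with upper-quartile scaling, 3 with library totals only, 58 without a filter, 25 at a mean CPM of at least 5, and 58 with the mouse as a replicate block, and lay between 0 and 57 with 1 library left out. The number lower in tumour against control liver, 23 in the report, was 0 with library totals only, 42 without a filter and 36 with DESeq2, and lay between 0 and 45 with 1 library left out, while the 1 gene higher became 0 at a mean CPM of at least 5. In KAP1-deleted against control liver the 1 gene higher became 2 without a filter, beside 354 of 27238 genes and 42 of 17558 in the report. It became 0 at a mean CPM of at least 5, with limma-voom and with only the groups compared. All genes called higher numbered 13 of 9245, 26 of 17558 and 13 of 16554 there. Of 17558 genes, 896 fell in tumour against KAP1-deleted liver with upper-quartile scaling, 520 with library totals only and 2321 with the mouse block. Genes that fell numbered 2256 of 27238 without a filter and 743 of 9245 at a mean CPM of at least 5. Against control liver 627 of 17558 fell with library totals only, 2314 of 27238 without a filter and 1727 of 17558 with DESeq2. At a mean CPM of at least 5, 556 of 9245 rose there.

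With library totals only the nuclear and mitochondrial medians were -0.19 and -0.40 in tumour against KAP1-deleted liver, and the nuclear one -0.10 against control liver. With 1 library left out, the medians in KAP1-deleted against control liver lay between -0.11 and 0.28 (nuclear) and -0.0887 and 0.78 (mitochondrial). Relative to all genes they lay between -0.11 and 0.26 and between -0.11 and 0.78, and the nuclear medians in tumour against KAP1-deleted and control liver between -0.81 and -0.59 and between -0.78 and -0.42. The mitochondrial medians in these tumour comparisons, also relative to all genes, lay between -1.23 and -0.58 and between -0.86 and -0.17.

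Without the 20 most abundant nuclear genes in the denominator, mitochondrial genes held 4.59%, 5.89% and 4.98% of counts in tumour, KAP1-deleted and control liver, and nuclear genes 0.856%, 1.07% and 1.03%. With nuclear genes as the denominator, nuclear members held 0.687% in tumours. The cause of these shifts was not tested. The block could be fitted only for tumour against KAP1-deleted liver, since each control is the only library of its mouse. Leaving out 1 library leaves a lone sample that is assumed to vary like the other groups. Leaving out pseudogenes and Atp5s, and keeping only mitochondrial genes with over 80% unique words, were alternatives chosen after seeing the data.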
